A study of Mus musculus with 24 samples.

Results

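The liver response of hepatocyte-specific EGFR knockout (KO) mice to acetaminophen at 3 h was set against that of wild-type (WT) mice at 3 h. The measure is a difference of responses on the log2 scale: KO 3hr over KO 0hr, minus WT 3hr over WT 0hr. It is called the difference of response below, and a positive value means that the 3 h response was higher in KO. The levels compared come from 12 of the 24 libraries of the series, 3 in each of the groups KO 3hr, WT 3hr, KO 0hr and WT 0hr, in the count column that ignores strand. The spread between mice was estimated in 1 fit over all 24 libraries in 8 groups (16 residual degrees of freedom), which also hold the 1 h and 12 h mice. All mice belong to an experiment with acetaminophen at 500 mg/kg, and each library comes from the liver of 1 mouse. P-values measure the spread between the mice of all 8 groups, and the replicate numbers only name mice. Whether the 0 h mice received the drug or a vehicle is not given in the sources used here, nor are the driver of the knockout, the strain, the sex or the age. Since the samples are whole liver, fewer cells of a type and less RNA per cell cannot be told apart.

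The epidermal growth factor receptor (EGFR) is a receptor tyrosine kinase that hepatocytes carry at high levels, and its ligands drive growth and repair signals through the ERK, AKT and STAT pathways. Acetaminophen overdose injures the hepatocytes around the central vein, where cytochrome P450 enzymes turn the drug into a reactive quinone imine that depletes glutathione. Injury and inflammation raise the acute phase proteins, plasma proteins that hepatocytes make when interleukin-6 activates STAT3, and SOCS3 is the induced brake on that pathway.

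The difference of response passed the threshold in 20 of the 13204 genes tested, which is 0.151% (adjusted p under 0.05, edgeR quasi-likelihood F-test with Benjamini-Hochberg adjustment over all genes tested), and 1145 genes (8.67%) had an unadjusted p under 0.05. Of the 20 genes, 10 were higher in KO and 10 lower, each 0.0757% of the genes tested. Scaled by library size alone, 27 genes passed, 18 higher and 9 lower. Fitted on only the 12 libraries at 0 and 3 h, 24 genes passed, of which 11 were among the 20. Among the genes with a lower difference were Socs3, haptoglobin (Hp), the protease inhibitor murinoglobulin Mug2 and apolipoprotein Apon. Among those with a higher difference were the lectin gene Clec2d, the methyltransferase gene Setd7 and Fam13a. The log2 difference of response ran from 0.95 to 1.94 in the higher genes and from -2.35 to -0.96 in the lower genes.

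In the libraries at 0 and 3 h, 4.43 to 7.58 M reads were counted on genes, of which 39.6% to 43.2% were mitochondrial rRNA, leaving 2.57 to 4.37 M, and 27.5% to 29.2% of reads were ambiguous between overlapping genes. The 20 genes rested on raw counts between 9 and 9831 per library. Egfr, the targeted gene, checks the labels. It stood at 82.3, 184 and 271 CPM (counts scaled to a common library size with TMM factors) in KO 3hr, at 303, 633 and 455 CPM in WT 3hr, at 59.5, 78.0 and 109.6 CPM in KO 0hr, and at 385, 334 and 461 CPM in WT 0hr. At 0 h and at 3 h every KO library lay below every WT library. At 1 h the library labelled KO 1hr replicate 1 had 335 CPM, within the WT 1hr range of 332 to 407 CPM, and the other two KO 1hr libraries had 136 and 155 CPM. Bulk counts cannot tell which cells the remaining Egfr reads of KO livers came from. The difference of response of Egfr was 0.88 ± 0.61 (SE; edgeR adjusted p = 0.761). Its genotype difference did not pass at 0 h (-2.25 ± 0.45, edgeR adjusted p = 0.0946) or at 3 h (-1.37 ± 0.44, edgeR adjusted p = 0.216).

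The 2 parts of the measure are the genotype difference at 3 h and that at 0 h, and the difference of response is the first minus the second. Between genotypes, 129 genes (0.977%) passed at 3 h, 43 higher (0.326%) and 86 lower (0.651%) in KO, library size alone gave 68 higher and 70 lower, and 10.4% had an unadjusted p under 0.05. At 0 h 2 genes (0.0151%) passed, Gm16146 and Setdb2, both lower in KO, and 1072 (8.12%) had an unadjusted p under 0.05. A difference is said to arise at 3 h where the 3 h part makes up at least 2/3 of it, at 0 h where it makes up at most 1/3, and at both times otherwise. By this rule 11 of the 20 genes arose at 3 h, 9 at both times and 0 at 0 h, beside 41.9%, 19.0% and 39.1% of all genes tested. The genes were called on the difference between these same 2 parts, so nothing is read from these counts. The KO 3hr and WT 3hr libraries did not overlap in any of the 20 genes, and the KO 0hr and WT 0hr libraries did not overlap in 9 of them. Over all genes tested these shares were 15.5% and 14.4%, and the test itself favours genes of the first kind. The genotype difference alone passed in 16 of the 20 genes at 3 h and in 1 at 0 h. In Rin2, Wsb1, Adora1 and Gm34019 it passed at neither time.

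**Figure D1:**
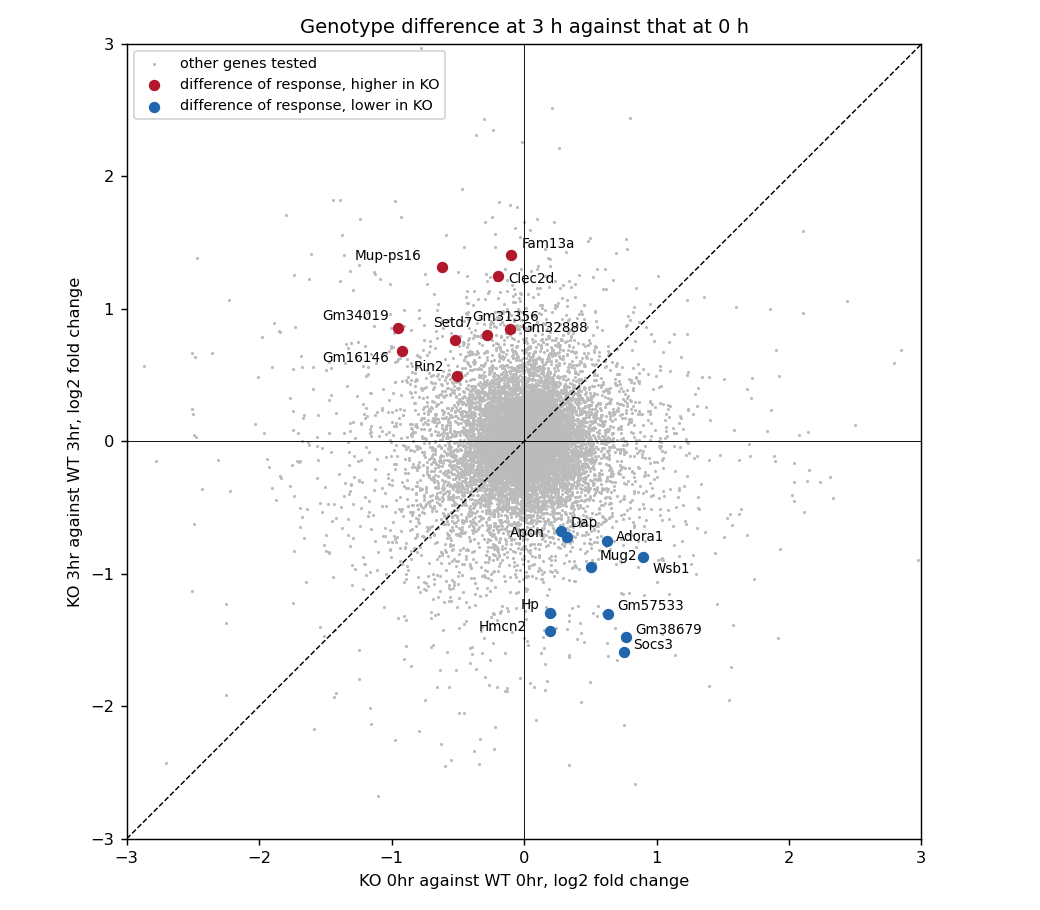
Each point is a gene tested, with the log2 fold change of KO 0hr against WT 0hr on the horizontal axis and of KO 3hr against WT 3hr on the vertical axis; the dashed line marks no difference of response, 23 genes lie outside the axes, and 19 of the 20 called genes are marked. The 9 red genes (higher difference in KO) lie above the line and left of zero. The 10 blue genes (lower) lie below the line and right of zero. The genotype difference had opposite signs at 0 h and 3 h in each, though at 0 h 1 of them passed the test. The genes were called on the difference between these values, which favours opposite signs, so nothing is read from the signs.

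The third question was whether all 3 WT 3hr mice share a difference. For this each WT 3hr library was used alone, on log2 CPM, and a mouse was said to share the difference where its own value had the sign of the mean and at least 0.5 of its size. All 3 mice shared it in 19 of the 20 genes, with Hp the exception, beside 28.5% of all genes tested. The genes were called on these same libraries by a test that favours agreement between them, so nothing is read from that share. With replicate 1, 2 or 3 as the only WT 3hr library, 6, 9 and 12 of the 20 passed in that order. WT 3hr replicates 2 and 3 stood apart. In a principal component analysis of the 12 libraries the second component (12.95% of the variance) placed them at 33.4 and 29.4. It placed the KO 3hr libraries between -26.3 and -9.6, WT 3hr replicate 1 at -12.7, and all 0 h libraries between -9.9 and 10.1.

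The STAT3 brake and the acute phase genes gave 2 members of the list of 20. Socs3 had 2.50, 2.40 and 2.02 CPM in KO 3hr, 7.71, 6.50 and 6.63 CPM in WT 3hr, 4.59, 7.16 and 4.35 CPM in KO 0hr, and 2.97, 3.15 and 3.33 CPM in WT 0hr. The KO livers were therefore below the WT livers at 3 h and above them at 0 h, with no overlap at either time. The response was -1.21 ± 0.34 in KO (SE; edgeR adjusted p = 0.0205) and 1.15 ± 0.30 in WT (edgeR adjusted p = 0.00992). For Socs3 the difference of response was -2.35 ± 0.45 (edgeR adjusted p = 0.0262), the largest in size of the 20, with a share of 0.678 from 3 h. It arose at 3 h by a narrow margin, and all 3 WT 3hr mice shared it, with -2.29, -2.05 and -2.08 for replicates 1, 2 and 3. Socs3 is a low gene here, with 11 to 17 reads in KO 3hr libraries, and it passed in 5 of 12 fits that left out 1 library.

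Haptoglobin binds free hemoglobin in plasma. Hp had 559.9, 479 and 471 CPM in KO 3hr, 662, 1490 and 1551 CPM in WT 3hr, 449.9, 398 and 457 CPM in KO 0hr, and 343, 366 and 433 CPM in WT 0hr. WT 3hr replicate 1 lay just above all KO and WT 0hr libraries, and WT 3hr replicates 2 and 3 lay far above. Hp rose in WT (1.70 ± 0.19, edgeR adjusted p = 7.578e-07), while the KO value was 0.21 ± 0.18 (edgeR adjusted p = 0.55). For Hp the difference of response, -1.49 ± 0.26 (edgeR adjusted p = 0.0148), arose at 3 h. Replicate 1 did not share it at -0.60, against -1.77 and -1.82 for replicates 2 and 3. Of the other lower genes, Mug2, Apon, Dap and Adora1 also had their smallest difference in size with replicate 1, though by the rule it shared them. In the remaining lower genes the smallest was with replicate 2 or 3.

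The list of positive acute phase proteins had 31 genes, of which 30 were tested. The difference of response was negative in 29 of the 30, with a median of -1.51, beside 6663 negative of 13204 and a median of -0.003 over all genes tested. Only Hp passed the test. At 3 h the genotype difference passed in 18 of the 30, all lower in KO (0.651% of all genes were lower), and at 0 h in 0, where the list's median was -0.10. The response passed in 4 members in KO, 3 higher (5.11% of all genes) and 1 lower (4.84%), and in 25 in WT, all higher (7.28% of all genes were higher and 6.85% lower).

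The list separates the WT 3hr mice. Its median difference of response was -0.14 with replicate 1, -1.74 with replicate 2 and -1.95 with replicate 3, and 3 of the 30 genes (C4bp, Agt and Mt2) were shared by all 3 mice. The summed level of the list was 7448 to 8080.0 CPM in KO 3hr, 8720.0, 26460 and 29570 CPM in WT 3hr replicates 1, 2 and 3, 6203 to 7028 CPM in KO 0hr, and 6048 to 7056 CPM in WT 0hr. With WT 3hr replicate 1 as the only WT 3hr library, 0 members were lower by the test at 3 h and the median difference of response was -0.17. Without WT 3hr replicate 1, 16 members passed for the difference of response and 23 for the genotype difference at 3 h, all lower, where over all genes 99 and 213 were lower. Without replicate 2 or without replicate 3, 1 member passed at 3 h. These fits were added after the data were seen.

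**Figure D2:**
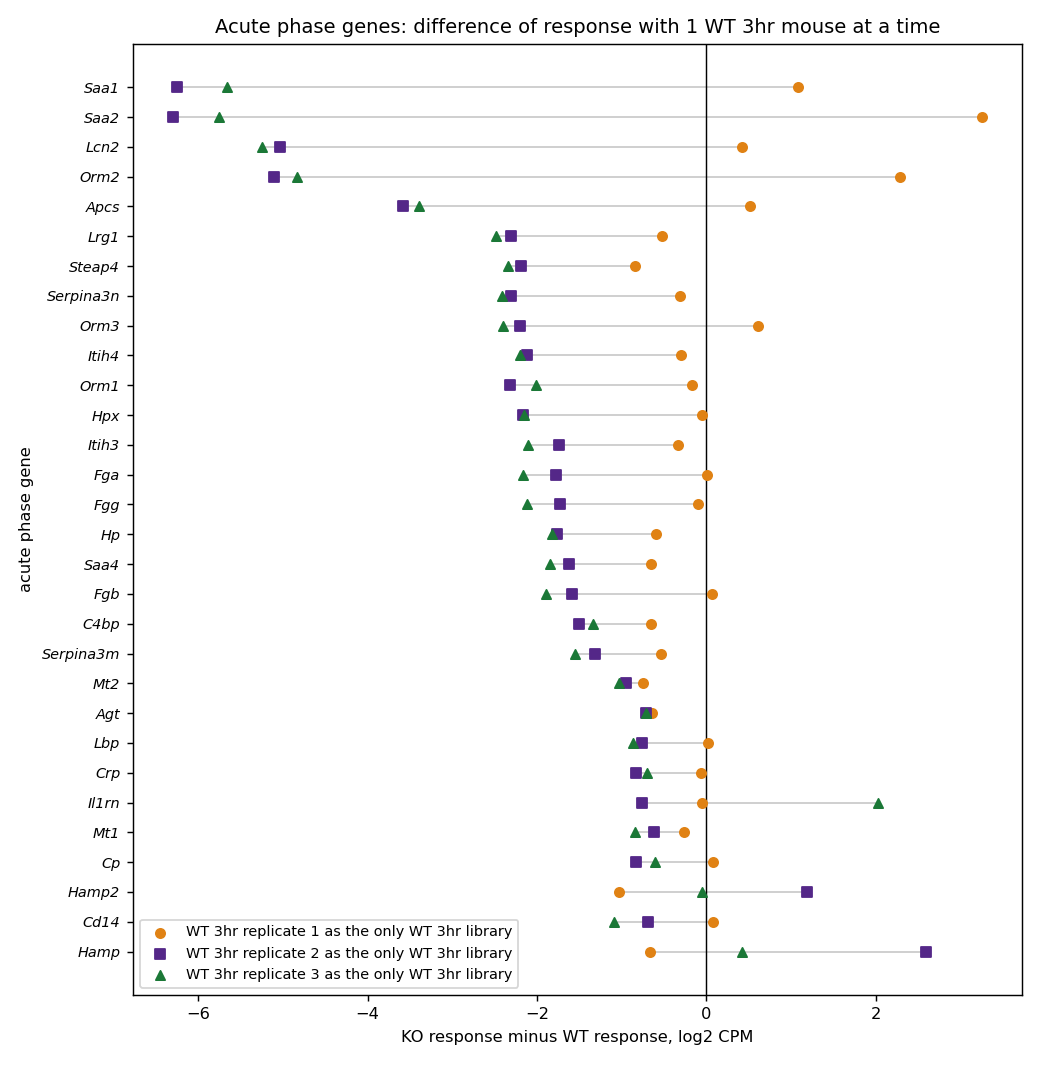
Difference of response (horizontal axis, log2 CPM) of the 30 tested acute phase genes with 1 WT 3hr mouse at a time; circles are replicate 1, squares replicate 2 and triangles replicate 3. Circles lie within 1 log2 unit of 0 for most genes (median -0.14; Saa2 and Orm2 are furthest above), while most squares and triangles lie far to the left (medians -1.74 and -1.95); Hamp, Hamp2 and Il1rn do not follow this order.

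Examples from the list, chosen after their values were seen, show the same split. The beta chain of fibrinogen, the clotting protein, had 1231, 1181 and 1289 CPM of Fgb in KO 3hr, 1250.0, 3929 and 4864 CPM in WT 3hr, 1144, 1069 and 1180.0 CPM in KO 0hr, and 1273, 1081 and 1260.0 CPM in WT 0hr. Steap4, a metalloreductase induced by cytokines, had 18.3, 18.1 and 14.3 CPM in KO 3hr, 22.6, 58.1 and 64.8 CPM in WT 3hr, 30.4, 29.7 and 17.4 CPM in KO 0hr, and 20.1, 18.7 and 17.3 CPM in WT 0hr. In both genes WT 3hr replicates 2 and 3 were the 2 highest of the 12 libraries and replicate 1 was near the KO livers. The differences of response did not pass, at -1.35 ± 0.42 for Fgb (edgeR adjusted p = 0.262) and -1.97 ± 0.43 for Steap4 (edgeR adjusted p = 0.0778), and both arose at 3 h. Serum amyloid Saa1 reached 1100.0 and 735 CPM in WT 3hr replicates 2 and 3, against 6.47 CPM in replicate 1 and 33.7, 6.75 and 2.80 CPM in KO 3hr, and its difference of -4.60 ± 2.50 did not pass (edgeR adjusted p = 0.658). Hamp, the iron hormone hepcidin, went the other way in its levels at 3 h, with 174, 195 and 182 CPM in KO 3hr against 146, 15.0 and 68.8 CPM in WT 3hr. Its difference of response did not pass (edgeR adjusted p = 0.973), and the levels at 3 h alone do not give the sign of that difference.

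Of the 26 genes on the interleukin-6 and STAT3 list, 22 were tested and 1, Socs3, passed for the difference of response. Stat3 itself had 42.4, 47.7 and 40.0 CPM in KO 3hr, 50.5, 96.7 and 94.0 CPM in WT 3hr, 37.0, 42.1 and 43.7 CPM in KO 0hr, and 41.6, 41.2 and 41.4 CPM in WT 0hr. Its genotype difference at 3 h passed (-0.89, edgeR adjusted p = 0.0236), and its difference of response did not (-0.87 ± 0.28, edgeR adjusted p = 0.256). Like the acute phase genes, and unlike Socs3, it was high in WT 3hr replicates 2 and 3 only. The receptor genes Il6ra and Il6st had differences of response of -0.0049 and -0.30, neither past the threshold.

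Promoters are shown for Socs3, the called gene of this pathway, and for Steap4 and Fgb, whose levels split the WT 3hr mice. They were picked by hand, and each holds a match of the letters marked below. Of the 26 acute phase genes with a promoter, 8 hold one. Saa1, whose levels also split these mice, holds none. Each is the run of 250 bases before the gene's start in RefSeq on GRCm38.p6, read 5′ to 3′ on the gene's strand. Capitals mark the letters TTCNNNGAA, the spaced half-sites that STAT proteins are known to bind. The windows are chr11:117969367-117969616 (minus strand) for Socs3, chr5:7960222-7960471 (plus strand) for Steap4 and chr3:83049864-83050113 (minus strand) for Fgb.
Socs3: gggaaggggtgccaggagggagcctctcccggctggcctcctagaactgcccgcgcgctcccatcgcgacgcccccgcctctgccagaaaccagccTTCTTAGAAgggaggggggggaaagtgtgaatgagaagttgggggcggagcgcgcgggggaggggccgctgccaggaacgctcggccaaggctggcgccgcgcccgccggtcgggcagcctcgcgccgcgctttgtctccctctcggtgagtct
Steap4: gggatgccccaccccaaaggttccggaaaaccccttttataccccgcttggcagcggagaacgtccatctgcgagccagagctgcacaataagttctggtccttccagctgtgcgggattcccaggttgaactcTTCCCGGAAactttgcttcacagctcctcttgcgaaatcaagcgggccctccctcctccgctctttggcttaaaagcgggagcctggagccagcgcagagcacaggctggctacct
Fgb: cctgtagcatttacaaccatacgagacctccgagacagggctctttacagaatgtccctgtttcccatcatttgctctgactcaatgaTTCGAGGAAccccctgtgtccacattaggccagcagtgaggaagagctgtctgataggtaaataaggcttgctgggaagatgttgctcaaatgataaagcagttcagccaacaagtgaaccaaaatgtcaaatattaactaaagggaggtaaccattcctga
The match began 154 bases before the start in Socs3, 116 in Steap4 and 162 in Fgb. On both strands, TTCNNNGAA was found in 8 of the 26 acute phase genes with a promoter in the table (30.8%) and in 8.13% of 27025 genes. TTGCNNAA, a C/EBP pattern, was found in 13 of the 26 and in 10.8% of all genes, and TGANTCA, an AP-1 pattern, in 9 (34.6%) and 7.82%. A pattern for NF-kB was found in 6 of the 26 (23.1%) and in 19.7% of all genes. Of the 14 called genes with a promoter, 2 held TTCNNNGAA, Socs3 and Setd7, 0 held TTGCNNAA, and 2 each held the AP-1 and NF-kB patterns. The windows printed above also hold unmarked matches of the other patterns. These are C/EBP in Steap4 and Fgb, AP-1 in Fgb, and NF-kB in Socs3 and Steap4. The patterns were searched separately and can overlap, a match is not a shown binding site, and the list was chosen with earlier results known.

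Among the other plasma proteins, Mug2 and Apon passed. Mug2 encodes a murinoglobulin, a protease inhibitor of the alpha-macroglobulin family that is known in rodents. It had 152.5, 149.9 and 125 CPM in KO 3hr, 184, 304 and 337 CPM in WT 3hr, 189, 167 and 241 CPM in KO 0hr, and 149, 153 and 119.9 CPM in WT 0hr. The KO livers were below WT at 3 h and above WT at 0 h without overlap, and WT 3hr replicate 1 was the lowest of its group. For Mug2 the difference of response was -1.45 ± 0.23 (edgeR adjusted p = 0.00461). It arose at both times, with -0.95 at 3 h and 0.50 at 0 h, and all 3 WT 3hr mice shared it (-0.86, -1.59 and -1.74). The near copy Mug1 gave 0.55 ± 0.20 (edgeR adjusted p = 0.361), of the other sign, and reads that the copies share make both values uncertain.

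Apon encodes an apolipoprotein, a protein of plasma lipid particles. It had 97.0, 74.7 and 73.4 CPM in KO 3hr, 110.4, 149.5 and 146 CPM in WT 3hr, 98.0, 97.0 and 99.1 CPM in KO 0hr, and 89.5, 65.0 and 79.5 CPM in WT 0hr. The groups did not overlap at either time, and the order of the genotypes was opposite at the 2 times. For Apon the difference of response of -1.05 ± 0.21 (edgeR adjusted p = 0.0271) arose at 3 h, with -0.73 there and 0.33 at 0 h. All 3 WT 3hr mice shared it, with -0.79, -1.22 and -1.19. It was the only one of 17 tested apolipoprotein genes to pass.

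In the wider plasma protein lists the difference of response was mostly negative and passed in 1 gene, Mug2. It was negative in 21 of 24 tested complement genes (median -0.49), in 23 of 27 coagulation genes (median -0.45) and in 18 of 21 carrier and inhibitor genes (median -0.56). The genotype difference at 3 h passed in 9, 10 and 6 of these, all lower in KO, beside 0.651% of all genes. The medians with WT 3hr replicate 1 alone were -0.08, -0.06 and -0.17 for complement, coagulation and carriers in that order, and 0 members then passed at 3 h. Without WT 3hr replicate 1 the difference of response passed in 9 members of each list, and over all genes in 142. The genes with the smallest p were Serping1, the inhibitor of the first complement component (-0.78 ± 0.21, edgeR adjusted p = 0.128), and Serpinf2, the plasmin inhibitor (-0.85 ± 0.22, edgeR adjusted p = 0.0989). Both arose at 3 h and were shared by all 3 WT 3hr mice. The members shared by all 3 were 5 of 24, 7 of 27 and 7 of 21, near the 28.5% over all genes.

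Globin genes, markers of red blood cells, were high in the same WT 3hr mice as the acute phase genes. The 8 erythroid markers summed to 42.5 to 59.3 CPM in KO 3hr, to 80.5, 262 and 339 CPM in WT 3hr replicates 1, 2 and 3, to 65.2 to 95.6 CPM in KO 0hr, and to 64.0 to 149 CPM in WT 0hr. Of 5 tested, 3 globin genes passed at 3 h, all lower in KO, and 0 passed for the difference of response (median -1.93). The difference of response was negative in all 5. Alas2, the erythroid heme synthesis gene, did not follow the split of the WT 3hr mice and was highest in replicate 1. It had 10.6, 12.64 and 8.87 CPM in KO 3hr against 17.8, 11.8 and 12.6 CPM in WT 3hr replicates 1, 2 and 3. The 12 markers of Kupffer cells and macrophages, all tested, summed to 73.9 to 94.5 CPM in KO 3hr. In WT 3hr replicates 1, 2 and 3 they summed to 92.8, 150 and 205 CPM. The sums were 79.8 to 104 CPM in KO 0hr and 102 to 183 CPM in WT 0hr, and 1 marker (C1qb) passed at 3 h. Of the 12 neutrophil markers 0 reached the level for testing. Their sums were 1.09 to 2.80 CPM in KO 3hr and 1.79, 4.67 and 7.10 CPM in WT 3hr replicates 1, 2 and 3. They were 0.745 to 0.950 CPM in KO 0hr and 0.902 to 2.31 CPM in WT 0hr. The 8 hepatocyte markers summed to 38460 to 40660 CPM in KO 3hr and 46160 to 55490 CPM in WT 3hr. They include Fgb, which is also on the acute phase list, so this sum partly repeats that list. At 0 h the sums were 32350 to 39740 CPM in KO and 32880 to 37460 CPM in WT. Alb alone averaged 23620 CPM in KO 3hr and 33380 CPM in WT 3hr, while Cps1 went the other way, at 5048 and 4180 CPM. Of the 8 markers, 1 passed at 3 h, and their median difference of response was -0.10. The part of these cells in the differences was not tested.

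Setd7 had a higher and Wsb1 a lower difference of response. Setd7, a lysine methyltransferase of histones and other proteins, had 13.3, 14.4 and 16.3 CPM in KO 3hr, 6.88, 9.75 and 9.47 CPM in WT 3hr, 6.97, 6.86 and 9.19 CPM in KO 0hr, and 11.2, 7.99 and 13.5 CPM in WT 0hr. The groups were apart at 3 h and overlapped at 0 h. It rose in KO (0.92 ± 0.19, edgeR adjusted p = 0.00145) and gave -0.36 ± 0.19 in WT (edgeR adjusted p = 0.225). For Setd7 the difference of response of 1.29 ± 0.27 (edgeR adjusted p = 0.0324) arose at both times and was shared by all 3 WT 3hr mice (1.52, 1.03 and 1.08). Wsb1, a substrate receptor of a ubiquitin ligase, went the other way. It had 9.42, 9.15 and 10.6 CPM in KO 3hr, 20.5, 13.8 and 18.8 CPM in WT 3hr, 10.8, 15.5 and 25.1 CPM in KO 0hr, and 7.73, 11.4 and 9.19 CPM in WT 0hr. KO 0hr varied most, and its lowest library lay within the WT 0hr range. Wsb1 fell in KO (-0.83, edgeR adjusted p = 0.0275) and rose in WT (0.95, edgeR adjusted p = 0.00856). For Wsb1 the difference of response of -1.77 ± 0.34 (edgeR adjusted p = 0.0262) arose at both times and was shared by all 3 WT 3hr mice (-1.83, -1.27 and -1.70). Its genotype difference passed at neither time alone (edgeR adjusted p = 0.0949 at 3 h and 0.195 at 0 h).

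Fam13a and Clec2d had a less negative response in KO than in WT. Fam13a had 24.6, 18.3 and 23.3 CPM in KO 3hr, 9.22, 9.75 and 6.31 CPM in WT 3hr, 29.9, 29.3 and 34.3 CPM in KO 0hr, and 34.4, 36.8 and 29.5 CPM in WT 0hr. The 0 h groups overlapped, and the 3 WT 3hr libraries were the lowest of the 12. Its WT response was -1.99 ± 0.19 (edgeR adjusted p = 2.163e-08) and its KO response -0.49 ± 0.17 (edgeR adjusted p = 0.0677). For Fam13a the difference of response, 1.504 ± 0.26 (edgeR adjusted p = 0.00641), arose at 3 h, with a share of 0.934, and all 3 WT 3hr mice shared it (1.32, 1.24 and 1.85). Clec2d encodes a C-type lectin that is a ligand of a receptor of natural killer cells. It had 21.2, 28.3 and 30.96 CPM in KO 3hr, 12.7, 9.14 and 11.5 CPM in WT 3hr, 95.3, 75.4 and 82.5 CPM in KO 0hr, and 104.7, 105.3 and 81.1 CPM in WT 0hr. Its response was -1.66 in KO (edgeR adjusted p = 1.3e-06) and -3.11 in WT (edgeR adjusted p = 1.917e-10). For Clec2d the difference of response, 1.45 ± 0.27 (edgeR adjusted p = 0.0218), arose at 3 h and was shared by all 3 WT 3hr mice (1.24, 1.70 and 1.38).

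**Figure D3:**
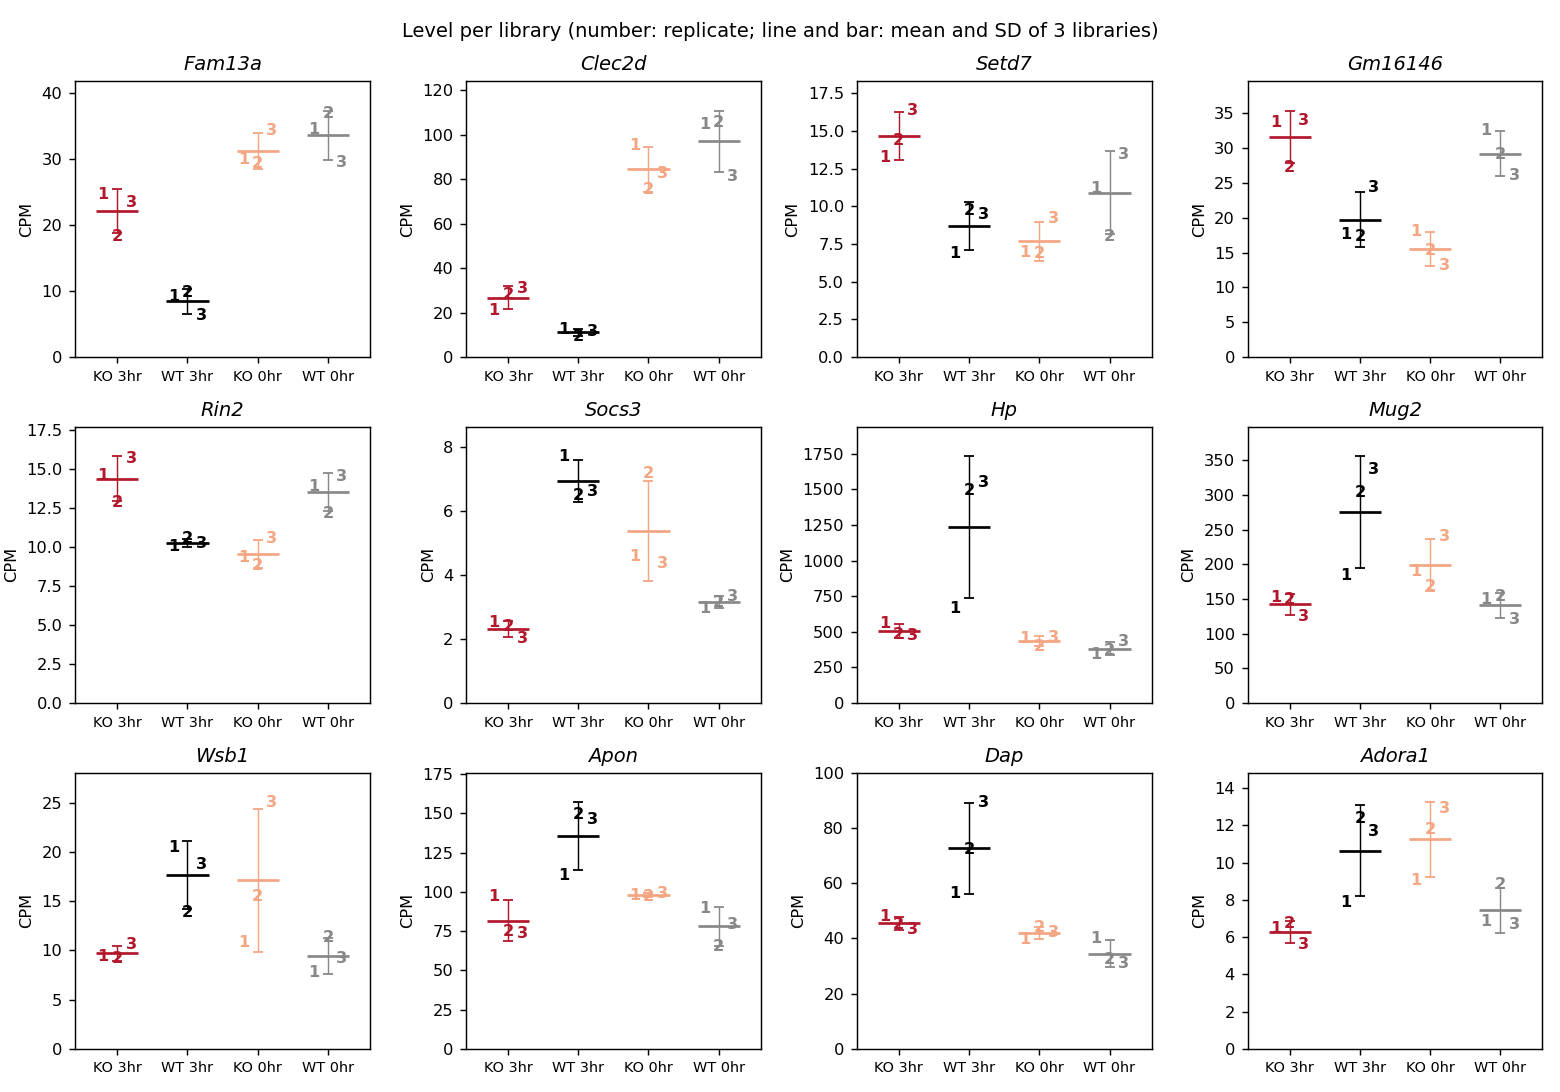
Level in CPM of 12 called genes in each library; digits are replicate numbers, lines and bars the mean and SD of 3 libraries, and the groups run KO 3hr, WT 3hr, KO 0hr and WT 0hr from left to right. KO 3hr and WT 3hr do not overlap in any panel. In the Hp panel WT 3hr replicate 1 (662 CPM) lies far from replicates 2 and 3 (1490 and 1551 CPM). Among the other lower genes, WT 3hr replicate 1 is also nearest the KO 3hr libraries in Mug2, Apon, Dap and Adora1, and replicate 2 is nearest in Socs3 and Wsb1.

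The last 3 named genes with counts on their own strand are signalling and autophagy genes. Rin2, an exchange factor of the endosomal GTPase Rab5, had 14.6, 12.9 and 15.7 CPM in KO 3hr, 10.1, 10.6 and 10.3 CPM in WT 3hr, 9.34, 8.80 and 10.6 CPM in KO 0hr, and 13.9, 12.2 and 14.5 CPM in WT 0hr. The genotypes changed places with no overlap at either time. For Rin2 the difference of response of 1.00 ± 0.20 (edgeR adjusted p = 0.0262) arose at both times, 0.49 at 3 h and -0.51 at 0 h, and all 3 WT 3hr mice shared it (0.99, 0.92 and 0.96). Neither part passed alone (edgeR adjusted p = 0.102 at 3 h and 0.203 at 0 h).

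Dap, a suppressor of autophagy, had 48.0, 45.1 and 43.1 CPM in KO 3hr, 56.3, 72.3 and 89.3 CPM in WT 3hr, 39.7, 43.9 and 42.0 CPM in KO 0hr, and 40.0, 32.2 and 31.04 CPM in WT 0hr. It rose in WT (1.07 ± 0.14, edgeR adjusted p = 1.721e-06) and gave 0.12 ± 0.14 in KO (edgeR adjusted p = 0.671). For Dap the difference of response of -0.96 ± 0.19 (edgeR adjusted p = 0.0262) arose at 3 h and was shared by all 3 WT 3hr mice, weakest in replicate 1 (-0.60, -0.96 and -1.26). Adora1, an inhibitory adenosine receptor gene that overlaps Mybph, had 6.48, 6.75 and 5.602 CPM in KO 3hr, 7.85, 12.4 and 11.7 CPM in WT 3hr, 9.02, 11.8 and 12.9 CPM in KO 0hr, and 6.83, 8.83 and 6.66 CPM in WT 0hr. The genotypes changed places without overlap at either time. For Adora1 the difference of response of -1.37 ± 0.30 lay just inside the threshold (edgeR adjusted p = 0.0499), arose at both times and was shared by all 3 WT 3hr mice (-0.88, -1.52 and -1.43). Its genotype difference passed at neither time alone (edgeR adjusted p = 0.111 at 3 h and 0.366 at 0 h).

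Of the 20 genes, 7 are predicted loci or named as pseudogenes, and Hmcn2 is an eighth whose counts are not its own by strand. They lie outside the rule for naming genes except Hmcn2 and are given to account for the rest of the called genes reported here. In 4 of the 8, under 50% of the strand-assigned counts lay on the locus's own strand: Gm16146 (0.975%), Gm31356 (0.915%), Gm34019 (1.84%) and Hmcn2 (4.06%). In the RefSeq table Gm16146 overlaps Cyb5a, Gm34019 overlaps Gpld1 and Gm31356 overlaps Gpam, and Hmcn2 lies beside Ass1. None of these 4 neighbours passed for the difference of response, at -0.05 for Cyb5a, 0.10 for Gpld1, 0.43 for Gpam and -0.51 for Ass1. The genotype difference at 3 h passed in Gpam (0.56, edgeR adjusted p = 0.0233) and not in Cyb5a, Gpld1 or Ass1. The WT response passed in Gpam (-0.71, edgeR adjusted p = 0.000271) and Ass1 (0.46, edgeR adjusted p = 0.0246), with the signs of Gm31356 (-0.65) and Hmcn2 (1.02). Whether reads of these neighbours make up the counts was not tested.

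Gm16146, listed as a long noncoding RNA, had the smallest p of all genes. It had 33.6, 27.2 and 33.9 CPM in KO 3hr, 17.6, 17.3 and 24.3 CPM in WT 3hr, 18.1, 15.2 and 13.2 CPM in KO 0hr, and 32.5, 29.01 and 25.98 CPM in WT 0hr. The KO and WT livers exchanged levels between 0 h and 3 h with no overlap at either time. For Gm16146 the difference of response was 1.60 ± 0.21 (edgeR adjusted p = 0.000138), with 0.68 at 3 h and -0.92 at 0 h, both past the threshold. It arose at both times and was shared by all 3 WT 3hr mice (1.73, 1.76 and 1.27). It passed in each of the 12 fits that left out 1 library.

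Gm38679, a noncoding locus that overlaps Fbp1, had 3.24, 1.96 and 2.49 CPM in KO 3hr, 7.57, 7.92 and 6.63 CPM in WT 3hr, 22.2, 21.6 and 33.7 CPM in KO 0hr, and 12.6, 15.6 and 17.5 CPM in WT 0hr. It fell in both genotypes, with responses of -3.30 in KO and -1.04 in WT, and the genotypes did not overlap at either time. For Gm38679 the difference of response was -2.25 ± 0.38 (edgeR adjusted p = 0.00641), arose at both times and was shared by all 3 WT 3hr mice (-2.20, -2.26 and -2.02). Fbp1, the gluconeogenic fructose bisphosphatase gene, gave -0.51 ± 0.19 (edgeR adjusted p = 0.361).

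The others are given by their difference of response. Mup-ps16, of the major urinary protein family whose near-identical copies share reads, gave 1.94 ± 0.37 and arose at 3 h. Gm57533 gave -1.94 ± 0.39 and arose at 3 h. Hmcn2, a gene for an extracellular matrix protein, gave -1.63 ± 0.33 and arose at 3 h, with 5.15, 4.14 and 3.89 CPM in KO 3hr against 15.8, 10.2 and 9.47 CPM in WT 3hr. Gm34019 gave 1.81 ± 0.38 and arose at both times, Gm31356 gave 1.08 ± 0.23 and arose at 3 h, and Gm32888, which overlaps Psd3, gave 0.95 ± 0.21 and arose at 3 h. All 3 WT 3hr mice shared each of these 6 differences.

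Read by response, 13 of the 20 genes had responses of opposite sign in the genotypes, 3 had a larger response in KO and 4 a larger one in WT. The test favours responses that differ, and the shares over all genes were not counted, so nothing is read from these counts. The response passed in 11 of the 20 in KO, beside 9.95% of all genes, and in 15 in WT, beside 14.1%. The test on the difference between the responses favours genes with a large response, so nothing is read from these counts either. Both responses passed, with opposite signs, in Gm16146, Gm34019, Socs3 and Wsb1.

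**Figure D4:**
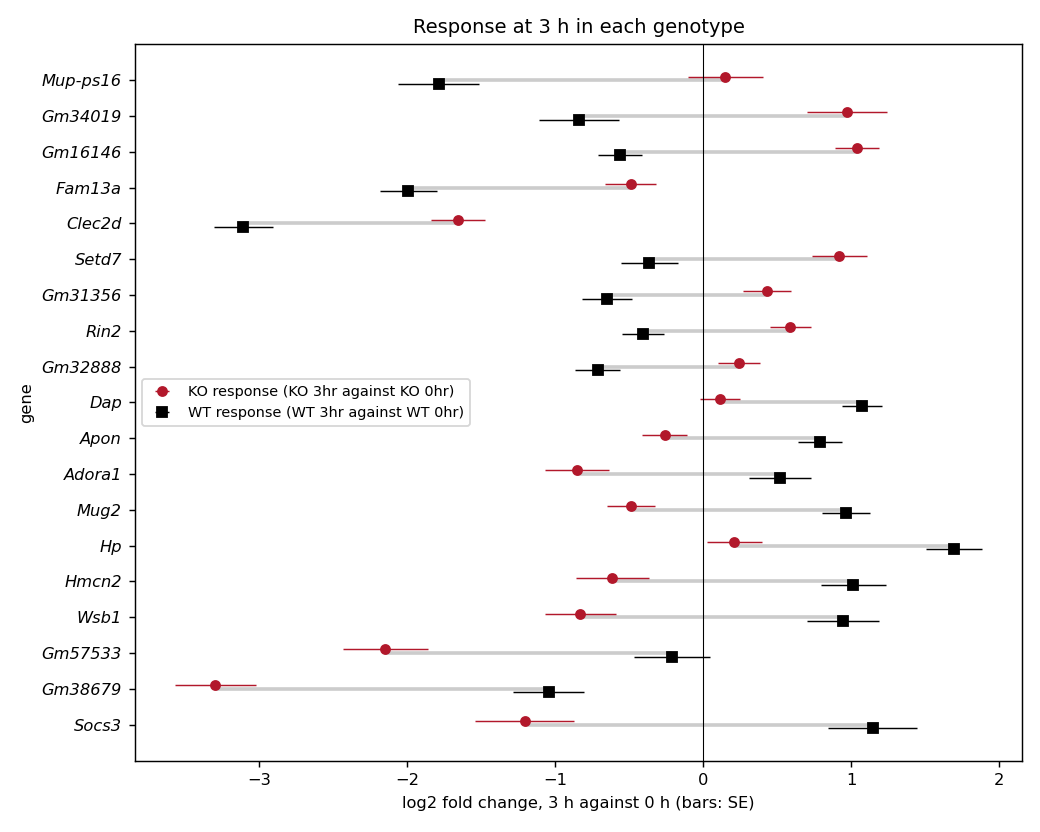
Log2 fold change of 3 h against 0 h in KO (red circles) and WT (black squares) for 19 of the 20 genes, with SE as bars and genes ordered by the difference of response. The marks lie on opposite sides of zero in 13 genes; Clec2d and Gm38679 fell in both genotypes, Clec2d more in WT and Gm38679 more in KO.

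The genotype difference of these genes was also read at 1 h and 12 h, where the libraries are not part of the measure. These comparisons were added after the data were seen. Of the 20 genes, 0 passed at 1 h (0.492% of all genes, 0.136% higher and 0.356% lower, 9.76% at an unadjusted p under 0.05) and 0 at 12 h (0.053%, all lower, 10.3% at an unadjusted p under 0.05) by edgeR. The genotype difference had the sign of the difference of response in 7 genes at 1 h and in 11 at 12 h, beside 47.2% and 51.5% of all genes. Without the library labelled KO 1hr replicate 1, whose Egfr level lay within the WT 1hr range, 104 genes (0.755%) passed at 1 h, 0 of the 20 among them, and 8 of the 20 had the sign of the difference of response, beside 48.8% of all genes. Gm16146 had 0.16 at 1 h and 0.57 at 12 h, Fam13a had -0.44 and -0.69, and Hp had 0.11 and 0.14, in the order of the times.

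**Figure D5:**
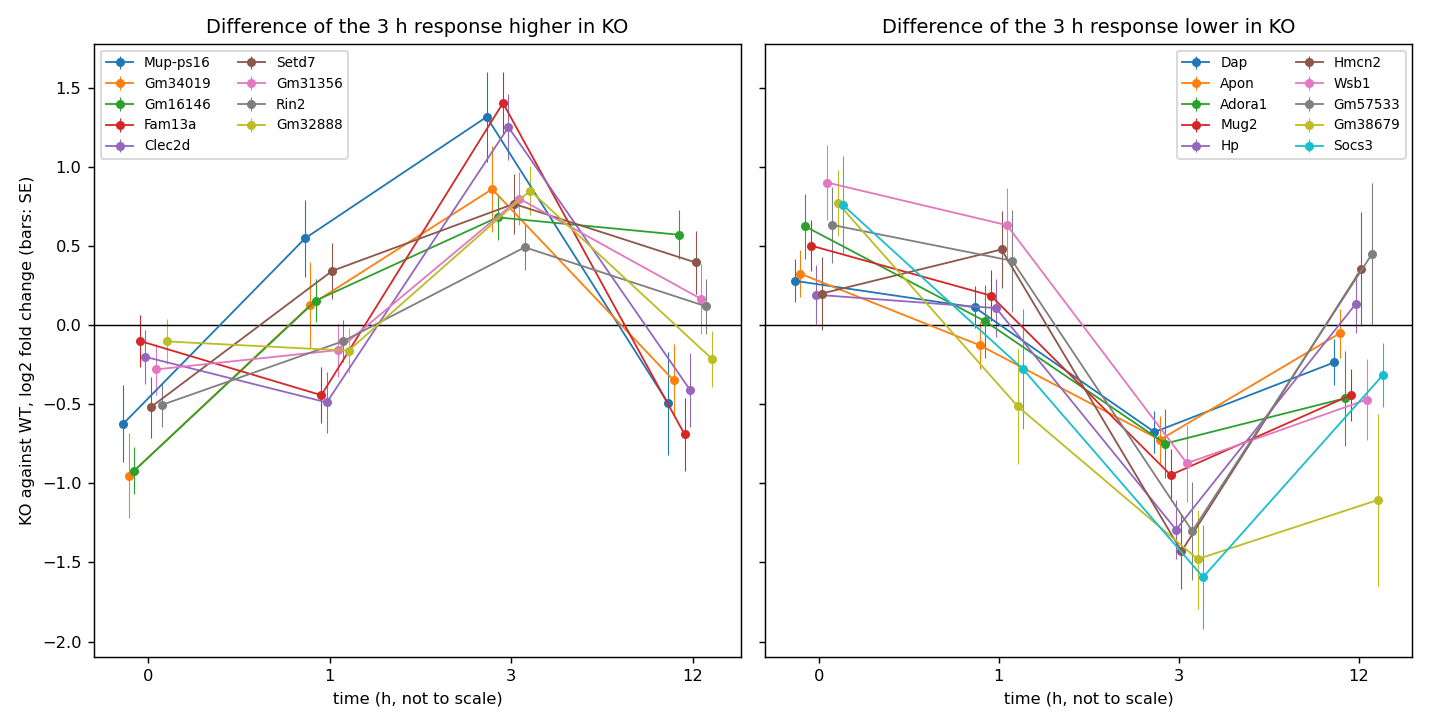
Log2 fold change of KO against WT (vertical axis, SE as bars) at 0, 1, 3 and 12 h for 9 genes with a higher and 10 with a lower difference of response; the time axis is not to scale. The genes were chosen on the values at 0 h and 3 h, so the spread there follows from the choice, and 0 of the 20 passed the test at 1 h or 12 h.

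The genes just outside the threshold were Hspb8 (-0.90) and Cep85l (0.86), both at an edgeR adjusted p of 0.0522, and Setdb2 (3.84, edgeR adjusted p = 0.0544). All 3 arose at 0 h. Setdb2, a gene for a histone methyltransferase, had 0.736, 0.436 and 1.71 CPM in KO 3hr, 1.24, 1.42 and 0.631 CPM in WT 3hr, 0.158, 0.149 and 0.621 CPM in KO 0hr, and 6.32, 2.73 and 6.66 CPM in WT 0hr. The genotype difference at 0 h passed (-3.95, edgeR adjusted p = 0.000453), and at 3 h the groups overlapped.

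Over all genes 0.151% passed, so nothing is read from a count of 0 in a short list. For the pathways through which the receptor signals, these were 0 of 16 tested genes of the EGF receptor family and its ligands (median 0.03), 0 of 14 ERK feedback genes and targets (median 0.28) and 0 of 23 immediate early genes (median 0.12). The smallest p among them belonged to Zfp36, an mRNA decay factor (0.64 ± 0.19, edgeR adjusted p = 0.208). In the acetaminophen metabolism list, 0 of 20 passed (median 0.26), with the smallest p in the glucuronosyltransferase gene Ugt2b35 (0.59 ± 0.26, edgeR adjusted p = 0.516). In the list of NRF2 targets and glutathione synthesis, 0 of 31 passed (median -0.05). The smallest p there was that of Gstm2, a glutathione transferase gene (-1.53 ± 0.42, edgeR adjusted p = 0.133), which arose at 0 h.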

How the data were processed

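Polyadenylated RNA from 24 livers was sequenced. The authors deposited raw read counts per gene for each library, made with STAR on mm39 per the submitters' processing notes. Neither the STAR version nor the annotation is stated there. The 4 lines naming no gene were left out of the counts. Genes were filtered with filterByExpr over the 8 groups, scaled with TMM, and fitted with edgeR 4.0.16 in R 4.3.3 (quasi-likelihood F-test, Benjamini-Hochberg adjustment). The SE is the absolute log2 change divided by the root of F. Values of each WT 3hr mouse used log2 CPM with a prior count of 2. The scripts were tested on simulated data. Alternatives used DESeq2 1.42.0, other filters, scalings and columns, a replicate block, and libraries left out. The gene lists and members were chosen with earlier results of these data known, and lists are described by counts and medians with no set test. Genes were named among those called with at least 5 CPM in the highest group: up to 12 in each direction by size and the 10 with the smallest p, passing over predicted loci and pseudogenes, then up to 4 called members of each list, or the member with the smallest p, with Egfr and 2 markers per cell type. Comparisons at 1 h and 12 h, a fit without KO 1hr replicate 1, and acute phase counts with single WT 3hr libraries, were added after the data were seen. Promoters are from RefSeq (GRCm38.p6). Of the called genes, 1 with a higher difference is not reported here.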

Additional observations from a re-analysis of the deposited data

Results flagged for a closer look

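The effect of 3 h differed between KO and WT livers by the edgeR interaction test in each of the 20 genes that passed, and 19 of them are given by their log2 difference of response. The higher values were 1.94 for Mup-ps16, 1.81 for Gm34019, 1.60 for Gm16146, 1.504 for Fam13a, 1.45 for Clec2d, 1.29 for Setd7, 1.08 for Gm31356, 1.00 for Rin2 and 0.95 for Gm32888. The lower values were -2.35 for Socs3, -2.25 for Gm38679, -1.94 for Gm57533, -1.77 for Wsb1, -1.63 for Hmcn2, -1.49 for Hp, -1.45 for Mug2, -1.37 for Adora1, -1.05 for Apon and -0.96 for Dap. With 3 libraries per group no library was tested as an outlier.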

How the results depend on the processing

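Over 24 alternatives none of the 20 genes changed sign, 4 (Gm16146, Mug2, Gm38679 and Fam13a) passed in all 12 fits that left out 1 library, and the others passed in 3 to 10 of them. Hp passed in 10 of these fits, Clec2d in 7 and Rin2 in 6. Socs3 and Wsb1 passed in 5, Apon, Dap and Setd7 in 4, and Adora1 in 3. The difference of response passed in 20 genes as reported, in 97 with DESeq2, in 159 with no low-count filter, in 77 with WT 3hr replicate 2 alone and in 98 with replicate 3 alone. With only the 12 libraries at 0 and 3 h it passed in 24, 11 of them among the 20. Without the library labelled KO 1hr replicate 1, a fit added after the data were seen, it passed in 30 genes with all 20 among them, and KO against WT at 1 h passed in 104 against 65 as reported. Leaving out 1 library at 0 or 3 h gave 6 (without KO 3hr replicate 3) to 142 (without WT 3hr replicate 1). KO against WT at 3 h passed in 129 genes as reported, in 28 with WT 3hr replicate 1 alone, 227 with replicate 3 alone, 254 with no filter, 54 with only the 12 libraries at 0 and 3 h, and 9 to 335 with 1 library left out. KO against WT at 0 h passed in 2 genes as reported, in 30 with DESeq2, 17, 19 and 17 with 1 WT 3hr replicate, 1 with the gene-strand column, 95 with no filter, 10 with the 12 libraries, and 1 to 19 with 1 library left out. The KO response passed in 1314 genes as reported and in 715 to 1400.0 with 1 library left out. The WT response passed in 1865 as reported, in 1027, 490.0 and 1061 with 1 WT 3hr replicate, and in 1255 to 1882 with 1 library left out. A lone library is assumed to vary like the other groups. With library size alone the WT response split into 689 higher and 1191 lower, against 961 and 904 as reported. With the replicate block the difference of response passed in 34 genes and KO against WT at 0 h in 9. Same-numbered libraries correlated at -0.092 to 0.162 in their deviations, so the numbers are not taken to pair mice. The causes of these shifts were not tested.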

Other observations

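Outside the plasma proteins, the cholesterol synthesis list had a negative difference of response in 22 of 23 tested genes (median -0.67), and 0 passed by edgeR. Its KO response passed in 5 genes, all lower, beside 4.84% of all genes lower. The list summed to 995 CPM in KO 0hr replicate 1, against 604 and 468 CPM in KO 0hr replicates 2 and 3. The sex-biased liver list had a positive difference in 21 of 26 tested genes (median 0.70), with 0 passed. Its median was 0.20 with WT 3hr replicate 1, 0.99 with replicate 2 and 1.13 with replicate 3.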
